A study of Oryza sativa with 2 samples.

Results

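The zinc, manganese and heavy metal transporters described here are 10 rice genes of 3 families, chosen by locus identifier: 6 ZIP genes (ZIP1, ZIP3, ZIP4, ZIP5, ZIP8 and ZIP9), 2 NRAMP genes (NRAMP5 and NRAMP1) and 2 HMA genes (HMA2 and HMA3). A gene's probes were those whose systematic name on the array carried its locus identifier. They are 10 of the loci on an array on which 23325 loci remained after filtering, 9 of the 10 among them. The exception was HMA3, whose single spot carried a software flag for an unusual local background in sample 1, and its values are therefore given apart.

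RNA came from root hairs of rice, cultivar label Don-gin, and was hybridised to 2 one-colour Cy3 arrays titled "07g39940 over" 1 and 2, called sample 1 and sample 2 here. Sterilised seeds had stood on MSO medium for 3 days, and the hairs were rubbed off detached seminal roots in liquid nitrogen. The labels do not say what "over" stands for, nor whether the samples are separate lines, plants or preparations, and there was 1 group and no control. Values are therefore described per sample (n = 2) with no test between conditions, and the spread between the samples may be technical.

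ZIP proteins carry zinc and other divalent metal ions into the cytoplasm across the plasma membrane or out of an organelle. NRAMP proteins carry divalent ions such as manganese, iron and cadmium in the same direction, using protons. HMA proteins are P-type ATPases that pump heavy metal ions out of the cytoplasm, either from the cell or into the vacuole. In roots, uptake carriers in the outer cell layers, vacuolar pumps and pumps that load the vascular tissue together set how much metal reaches the shoot, and several rice ZIP genes are known to be induced by zinc shortage.

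Signals below are the background-subtracted Cy3 signal in arbitrary units, before scaling between arrays. All differences are log2 values after each array was divided by its 75th percentile, as sample 2 minus sample 1, and folds come from them. Signals of different probes depend on the probe as well as on the RNA, so no gene's level is ranked against another's. In bulk RNA, fewer cells of a type and less RNA per cell cannot be told apart.

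Of the 9 genes that passed the filters, 8 were detected, meaning that at least 1 probe was called well above background on both arrays. The share over all loci was 84.0%. In each sample every probe of these 8 also exceeded the brightest of the control probes with random or artificial sequence (44.0 in sample 1, 49.9 in sample 2). At least 1 detected probe did so on both arrays for 69.5% of all loci. All 8 were lower in sample 2 than in sample 1, with a median log2 difference of -0.33 and a range of -1.35 to -0.08. Over the 19582 detected loci the median was 0.03, and 42.4% were lower in sample 2. That background share depended on the scaling and was 63.8% with median scaling. Median scaling moved every difference by -0.09, so the 8 genes stayed below 0 by construction. At least 2-fold apart was 1 of the 8, ZIP9, against a background of 2.31% of detected loci in either direction with 0.485% lower and 1.83% higher in sample 2.

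**Figure D1:**
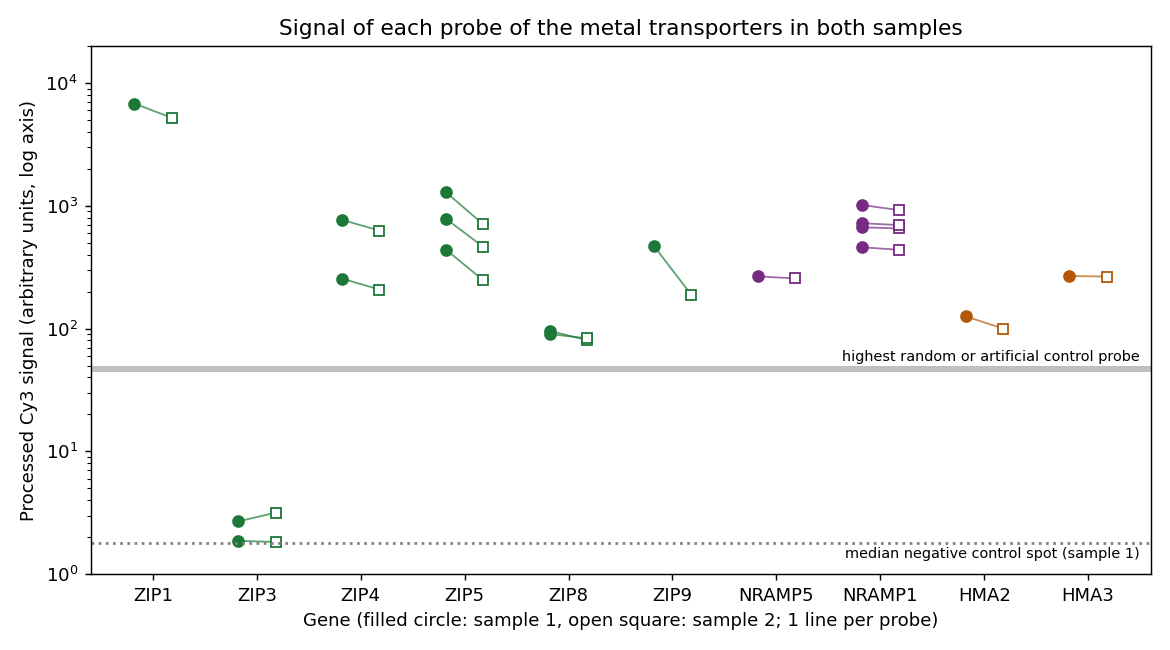
Processed Cy3 signal (log axis, arbitrary units) of each probe of the 10 genes in sample 1 (filled circles) and sample 2 (open squares), joined by a line per probe. The grey band runs between the highest control probes of the arrays (44.0 and 49.9), and the ZIP3 probes lie at the level of negative control spots while all other probes lie above the band.

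ZIP9 and ZIP5, zinc uptake transporters of rice roots, were furthest apart between the samples. The single probe of ZIP9 (Os05g0472400, chromosome 5) read 472 in sample 1 and 189 in sample 2. It was thus 2.55-fold lower in sample 2, a log2 difference of -1.35, with a measurement error of 0.20 propagated from the software's own signal errors. The SD between the samples on the log2 scale was 0.95, the largest of the 8 genes.

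ZIP5 (Os05g0472700, chromosome 5) was measured by 3 probes. The first read 1289 in sample 1 and 704 in sample 2, the second 784 and 462, and the third, designed on coding sequence alone, 439 and 247. Every ZIP5 probe was lower in sample 2, by log2 differences of -0.90, -0.79 and -0.85. Their mean was -0.85, a 1.80-fold difference, and the SD between the probes was 0.05.

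To judge these differences without more replicates, all probes detected on both arrays were divided by mean signal into 10 classes of equal size, and each gene was set against the probes of its own signal class. ZIP9 lay below the central 95% of its signal class, which ran from -0.39 to 0.93 with an SD of 0.58. ZIP5 also lay below its range, -0.31 to 0.59 with an SD of 0.47. At or below the value of ZIP9 were 0.342% of detected loci, and at or below that of ZIP5 0.618%. These shares describe the array and are not p-values.

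The pair also shares a place in the genome. In the RefSeq gene table (assembly ASM3414082v1) ZIP9 and ZIP5 are neighbours on chromosome 5, with 0 protein-coding genes between them. Related neighbours can share probe signal. Sequences of the probes were not used here, so cross-hybridisation between ZIP9 and ZIP5 was not tested.

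The naming of the ZIP9 probe is uncertain. Its systematic name is the ZIP9 locus, but its probe name carries Os05g0472600. By number that locus lies between ZIP9 (Os05g0472400) and ZIP5 (Os05g0472700), where the RefSeq table had 0 protein-coding genes. A further probe, named after the ZIP9 locus but with another systematic name, had signals of 90.3 and 49.8. That probe was 1.84-fold lower in sample 2 (log2 difference -0.88, measurement error 0.21), inside the range of its signal class (-0.61 to 2.29) and short of 2-fold. Both candidate probes for ZIP9 were thus lower in sample 2, and whether any of the 10 genes was 2-fold apart depended on the choice of name. Over the array, 3.76% of spots that carry a locus in both names have different ones.

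**Figure D2:**
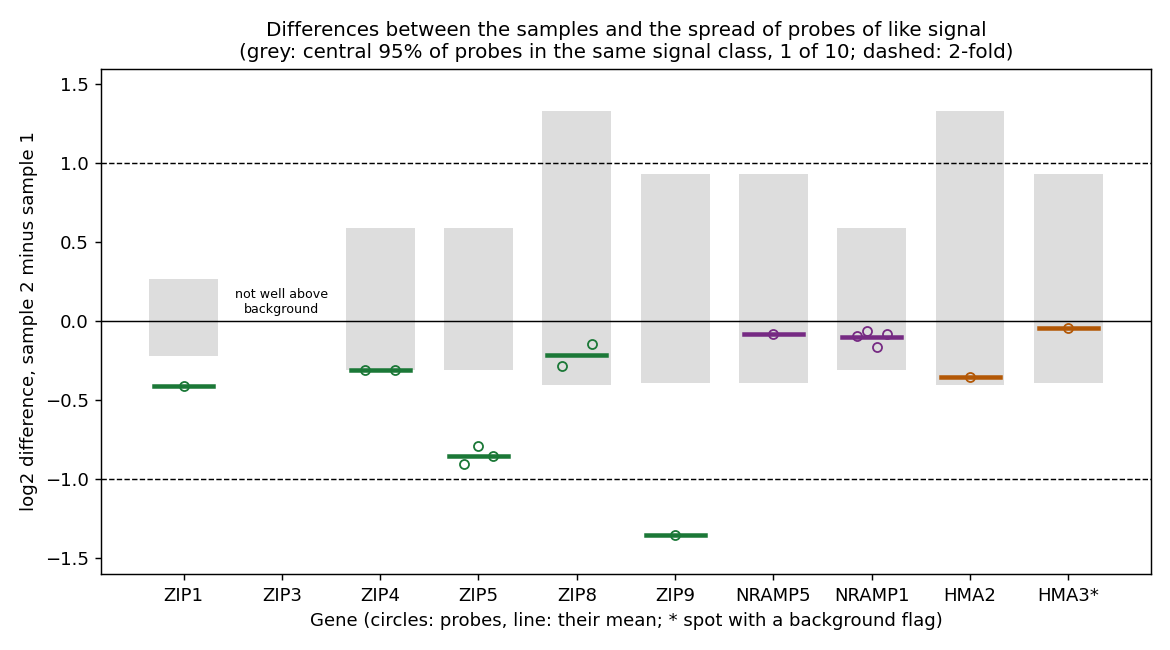
The log2 difference of each gene, sample 2 minus sample 1 (circles, probes; coloured line, their mean), over the central 95% of all probes of the same signal class (grey bars). ZIP9 (-1.35), ZIP5 (-0.85) and ZIP1 (-0.41) lie below their grey bars, and the NRAMP genes and HMA3 lie inside theirs.

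ZIP1 (Os01g0972200, chromosome 1), a metal transporter of the same family, read 6797 in sample 1 and 5209 in sample 2 with 1 probe. It was 1.33-fold lower in sample 2, a log2 difference of -0.41. Bright probes varied little, and the central 95% of the signal class of ZIP1 ran from -0.22 to 0.27 with an SD of 0.12, so the smaller fold of ZIP1 lay outside its range too. The names conflict here as well. The probe assigned to ZIP1 has a probe name with the locus Os08g0534000, and the probe named after the ZIP1 locus has the systematic name of Os08g0533900. The latter probe had signals of 10067 and 7748 and a log2 difference of -0.40, nearly that of the assigned probe. The other loci that the 2 probes carry have consecutive numbers, so like values do not settle which gene was measured.

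ZIP4 (Os08g0207500, chromosome 8), a zinc transporter known to be induced by zinc shortage, had 2 probes. The probe designed on coding sequence alone read 255 in sample 1 and 208 in sample 2, and the probe that also covers the 3' UTR 767 and 628. Both gave a log2 difference of -0.31, a 1.24-fold difference. The brighter probe lay at the lower end of the range of its signal class (-0.31 to 0.59), and the coding-sequence probe inside that of its own (-0.39 to 0.93).

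ZIP8 (Os07g0232800, chromosome 7), a zinc transporter, was dimmer. Its probes had signals of 95.8 and 80.4 for the first and of 90.1 and 83.4 for the second, with sample 1 higher each time. The log2 differences of -0.28 and -0.14 average to -0.21 (SD between probes 0.10), which is about the measurement error of 0.21 and inside the range of its signal class (-0.40 to 1.33).

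ZIP3 (Os04g0613000, chromosome 4) is known in rice for taking zinc out of the xylem in the nodes of the shoot. Both of its probes fell short of the detection call on both arrays. They read 2.69 in sample 1 and 3.17 in sample 2 for one probe and 1.87 and 1.83 for the other, against a median of 1.81 and 1.74 over the negative control spots. ZIP3 RNA was not detectable on these arrays, and no fold is given.

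The NRAMP genes were close in both samples. NRAMP5 (Os07g0257200, chromosome 7), the main carrier of manganese and cadmium into rice roots, read 266 in sample 1 and 256 in sample 2, a log2 difference of -0.08 with a measurement error of 0.20. NRAMP1 (Os07g0258400, chromosome 7), a carrier of iron, manganese and cadmium, had 4 probes, with signals from 459 to 1015 in sample 1 and from 438 to 922 in sample 2. Its log2 differences ran from -0.16 to -0.06 over the probes, with a mean of -0.10 and an SD of 0.05. Neither gene left the range of its signal class, and 21.1% of detected loci were at or below NRAMP5 and 18.4% at or below NRAMP1.

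HMA2 and HMA3 pump zinc and cadmium in different places, HMA2 at the plasma membrane on the way to the shoot and HMA3 into root vacuoles, where it holds cadmium back. HMA2 (Os06g0700700, chromosome 6) read 126 in sample 1 and 100 in sample 2 with 1 probe, a 1.28-fold difference (log2 difference -0.35, measurement error 0.21). That lay inside the range of its signal class, -0.40 to 1.33. HMA3 (Os07g0232900, chromosome 7) had signals of 268 and 265 when its flagged spot was kept, a log2 difference of -0.04. Its local background was 24 in sample 1 and 22 in sample 2, small beside the signal.

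ZIP8 and HMA3 have consecutive locus numbers on chromosome 7, and their differences were -0.21 and -0.04. NRAMP5 and NRAMP1, on the same chromosome with 2 protein-coding genes between them in the RefSeq table, differed by -0.08 and -0.10.

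Set side by side, the ZIP genes were further apart between the samples than the NRAMP genes. The 5 detected ZIP genes had a median log2 difference of -0.41 and ranged from -1.35 to -0.21. The NRAMP genes had a median of -0.09 and ranged from -0.10 to -0.08. Single probes did overlap, with -0.14 for a ZIP8 probe and -0.16 for an NRAMP1 probe. With further loci of each family added, ZIP loci ranged from -1.35 to 0.12 and NRAMP loci from -0.11 to 0.01, which overlap. HMA2 (-0.35) lay within the range of the 5 ZIP genes and HMA3 (-0.04) outside it. The ZIP median and the low end of the ZIP range rest on the single probes of ZIP1 and ZIP9, whose names conflict. With only probes whose names match, the ZIP median was -0.31. Without ZIP5 and ZIP9 the median of the remaining 3 ZIP genes was -0.31 as well. At least 1.5-fold lower in sample 2 were 2 of the 5 ZIP genes, ZIP5 and the uncertainly named ZIP9, and 0 of the NRAMP and HMA genes. The share over detected loci was 1.12%. The background the other way, at least 1.5-fold higher in sample 2, was 5.74%, and 0 of the 8 genes were so. With 1 sample on each side, the difference between families was not tested.

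A list of 26 other metal transporter loci gave a wider view. Of these, 20 had a probe after filtering, and the other 6 were not analysed here. All 20 were detected in both samples, against 84.0% of all loci. Of the 20, 9 were lower and 11 higher in sample 2, where 42.4% of all detected loci were lower. In either direction 0 of them were 2-fold apart, against 2.31% of detected loci. At least 1.5-fold lower or higher in sample 2 were also 0 of the 20, against 1.12% and 5.74%. Their median log2 difference was 0.02, close to that of all loci (0.03), and its sign turned with the scaling. They ranged from -0.47 to 0.45.

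**Figure D3:**
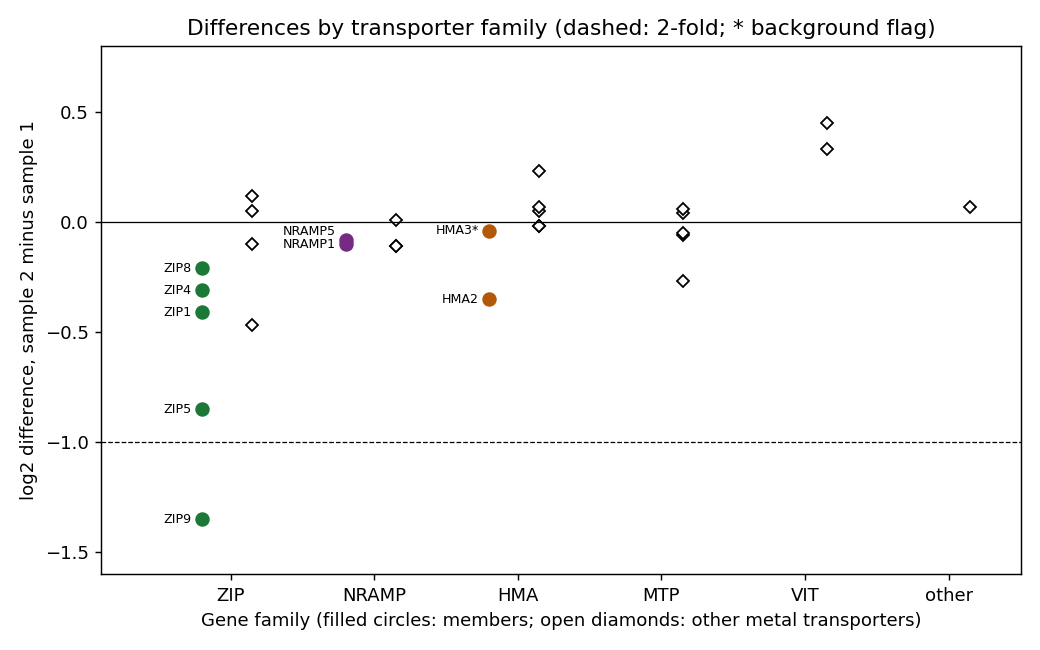
Log2 differences, sample 2 minus sample 1, by transporter family for the detected genes described here (filled circles, named) and the other metal transporter loci (open diamonds). The ZIP genes described here spread down to -1.35, while the other loci lie between -0.47 and 0.45.

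Among the other ZIP loci, ZIP2 stood lowest, with signals of 2342 in sample 1 and 1724 in sample 2 (log2 difference -0.47 over 2 probes). At or below ZIP2 were 1.6% of detected loci, against 1.98% for ZIP1, so ZIP2 lay lower than ZIP1. ZIP7, known for zinc loading into the xylem, had 3395 and 3231 (-0.10), and ZIP6 had 2451 and 2576 (0.05). IRT1, an iron transporter of the ZIP family, went the other way with 1907 and 2114 (0.12 over 3 probes). Of all 9 detected ZIP loci, 7 were lower and 2 higher in sample 2. The share lower over all detected loci was 42.4%, or 63.8% with median scaling. Among the 7 are the 5 detected ZIP genes described here, which were listed with earlier results of these data known.

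NRAMP2 (553 and 523) and NRAMP3 (4242 and 3986), the latter known for distributing manganese in the nodes, had log2 differences of -0.11 each, and NRAMP6 (2127 and 2172) had 0.01. With these, 4 of 5 detected NRAMP loci were lower in sample 2, against 42.4% of all detected loci (63.8% with median scaling). The family ranged from -0.11 to 0.01.

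The other HMA loci held the copper pumps HMA4 (1194 and 1274, log2 difference 0.07) and HMA5 (1258 and 1259, -0.02) and the metal efflux pump HMA9 (7020 and 7036, -0.02). With HMA2, 3 of 6 detected HMA loci were lower in sample 2 and 3 higher, beside 42.4% lower over all detected loci. MTP1, which moves zinc into the vacuole, had 9660 and 9400 (-0.06). The vacuolar iron transporters VIT1 (47.1 and 65.3) and VIT2 (22.2 and 28.4) were higher in sample 2, by 0.45 and 0.33. VIT2 did not exceed the highest control probe in either sample.

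**Figure D4:**
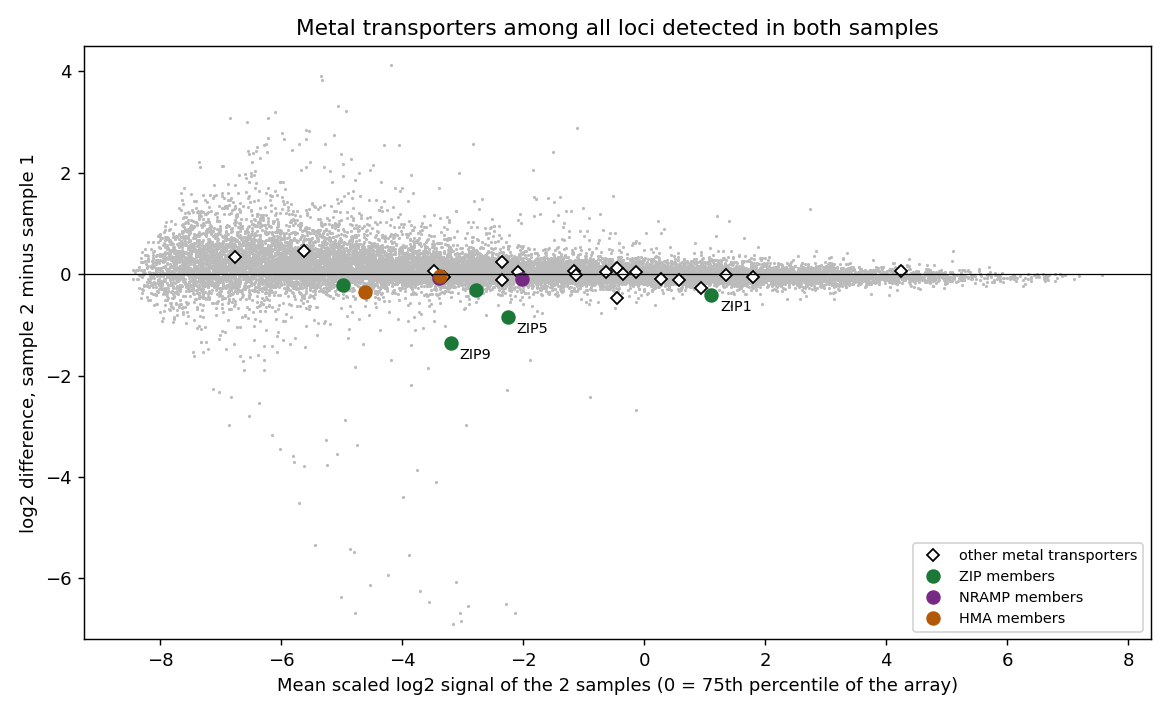
Log2 difference, sample 2 minus sample 1, against the mean scaled log2 signal for all 19582 loci detected in both samples (grey), the other metal transporters (open diamonds) and the genes described here (coloured). ZIP9 and ZIP5 lie below the dense band of loci of like signal, and the lowest grey points reach -6.89.

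The samples also differed in genes of other tissues. Root hair markers were bright in both samples, with a summed signal of 257657 in sample 1 and 241621 in sample 2. All 4 were detected, as were 84.0% of all loci. Of 6 stele and endodermis markers 2 were detected in both, and all 6 summed to 279 and 217. The defining endodermis genes SCR1 and SCR2, as well as HKT1;5, stayed at background (1.78 to 2.01) on both arrays. SHR1 read 3.82 and 10.2 and passed the detection call in sample 2 alone. The detected markers CASP1 (log2 difference -0.62) and PHO1;2 (-0.29) were lower in sample 2. Over all detected loci 42.4% were lower, and 1.01% and 3.76% were at or below CASP1 and PHO1;2. The 6 seed storage loci summed to 8238 and 121, with all 4 detected in both samples at least 2-fold lower in sample 2, and the 5 green tissue loci to 65.7 and 445, all 5 at least 2-fold higher in sample 2. The part of these tissues in the differences of the metal transporters was not tested.

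The 8 detected genes held their direction under each of the processing settings that gave them a value. ZIP1 and ZIP9 had none when probes with conflicting names were left out. Median scaling could not have changed a direction here, since it moved every difference by -0.09. Keeping flagged spots or dim probes could not change these 8 genes either, as all their probes were unflagged and detected. Taking the brightest or the median probe could not change ZIP1, ZIP9, NRAMP5 or HMA2, which have 1 probe each. The number of settings therefore overstates the number of separate checks. ZIP9 ranged from -1.46 to -0.88 over 12 settings and ZIP5 from -0.94 to -0.72 over 13. In the authors' deposited table the log2 difference was -1.24 for ZIP9, and ZIP1 read 12.81 and 12.41 on the log2 scale. ZIP1 ranged from -0.50 to -0.40, ZIP4 from -0.41 to -0.27 and HMA2 from -0.52 to -0.18. NRAMP5 (-0.19 to -0.04), NRAMP1 (-0.19 to -0.08) and ZIP8 (-0.39 to -0.14) stayed below 0 too.

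**Figure D5:**
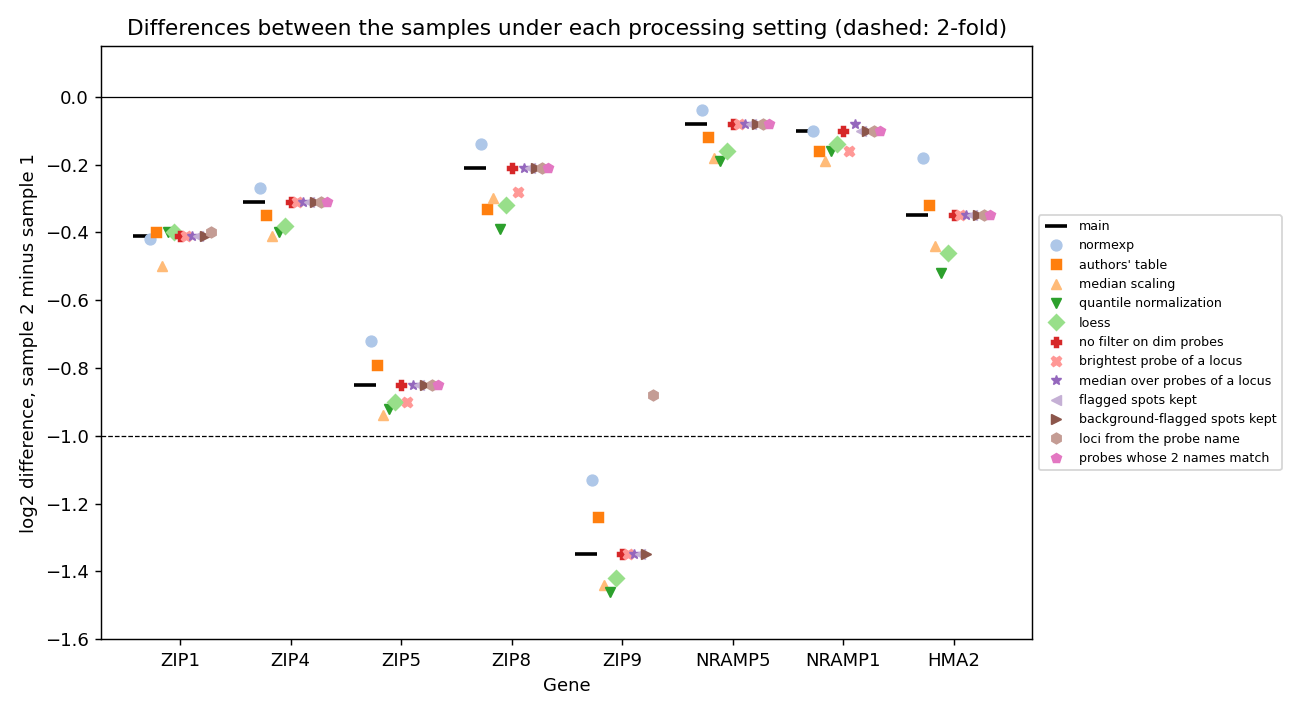
Log2 difference, sample 2 minus sample 1, of 8 genes under the reported processing (black bars) and the alternative settings (coloured symbols), with no value for ZIP1 and ZIP9 where probes with conflicting names were left out. All symbols lie below 0, and ZIP9 crosses the 2-fold line when loci are taken from the probe name (-0.88).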

How the data were processed

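The scanner software was Agilent Feature Extraction. The file headers give its version as 11.5.1.1 and the submitters' processing notes as 9.1. The Cy3 intensity used here was background-subtracted and detrended within each array by that software, per the file headers, with a probe design on build IRGSP5. The authors also deposited 1 table of log2 values, with 1 call per spot (present or absent). Its making is not stated by header or label.

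Of 45151 spots, 1417 scanner controls, 590 named control spots and 1436 spots with an outlier flag (1412 of them for the local background alone) were left out. The log2 signals were scaled by the 75th percentile of each array (2725 and 2772), and spots of a probe were averaged. This left 34776 probes, 29483 of them detected on both arrays. The 2 arrays shared 1 slide and 1 scan, 0 spots were saturated, and the array number limits the precision. The detection call was lenient, since 6 of 24 control probes of random or artificial sequence passed it. Locus averaging was run on simulated shifts with noise below the spread over all detected loci. That checks the code alone, not the differences reported here. Normexp and loess used limma 3.58.1 in R 4.3.3, the rest Python 3.11.15. Normexp was run on the median spot signal and the local background.

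The members and lists were chosen with earlier results of these data known. All 10 genes are named, and other loci were named after their values were seen. A rule to name loci by protein identity could not be applied without sequences. The symbols of 9 of the 10 genes were found once on the chromosome of their locus in the RefSeq table, and that of HMA3 was not. Of the other metal transporters, 16 of 26 were, and symbols are printed for these alone.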

Additional observations from a re-analysis of the deposited data

How the results depend on the processing

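The 2-fold count rested on 1 gene and 1 name. It was 1 (ZIP9) under most settings and 0 when loci were taken from the probe name or when probes with conflicting names were left out, settings chosen after seeing the data. The count of all loci at least 2-fold apart moved from 453 to 1173 without the filter on dim probes, 113 with normexp correction (also chosen afterwards) and 142 in the authors' deposited table. Of these, 79.0% were higher in sample 2 by the reported processing and 60.6% in the authors' table. The cause was not tested, except that the first setting adds dim loci by construction. The median of the other metal transporters, 0.02, turned to -0.01 with loess, -0.07 with median scaling, -0.0039 with quantile normalization and -0.01 in the authors' table.

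The median over the detected genes ran from -0.43 (median scaling) to -0.23 (normexp). With flagged spots kept, HMA3 entered and the HMA median was -0.19. Leaving out either sample gave 8 detected genes both times, 20 other metal transporters both times, and 19771 to 20145 detected loci, and left no difference between samples to compute. No paired analysis was possible because there is 1 group. Depth here is signal over background, and ZIP3 gave no usable signal. In the dim signal class of ZIP8 and HMA2 the SD of 0.59 exceeds their differences. The SD of the class also exceeds the difference for ZIP4, NRAMP5, NRAMP1 and HMA3, but not for ZIP1, ZIP5 and ZIP9.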
